A study of Mus musculus with 33 samples.

Results

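The genes that encode chromatin remodellers and the enzymes that write and erase histone methylation were followed through sleep loss in mouse frontal cortex. Members were taken by symbol (Chd1 to Chd9, Kmt2a to Kmt2e, the Kdm, Setd and Arid families with a number and an optional letter, and every Smarca to Smarce gene), with a mean of at least 1 CPM over all libraries. This rule took 62 of the 21565 genes in the table. The rule uses the symbol and the mean level alone. RNA-seq of mRNA libraries compared male adult mice of C57BL/6J background in 7 groups. Wild-type (WT) mice slept ad libitum (control sleep, CS, n = 6), went through 6 hr of sleep deprivation (SD, n = 7) or, per the study's text, slept for 2 hr after 4 hr of deprivation (recovery sleep, RS, n = 7). Mef2c f/f mice, which carry loxP sites around 1 exon of the transcription factor gene Mef2c, were studied in CS (n = 4) and SD (n = 3), and so were Mef2c-cKO mice, in which a Camk2a-Cre transgene recombines that allele (n = 3 each). The comparisons asked how the members differ with sleep loss, and whether they differ with the loss of Mef2c.

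Camk2a-Cre acts in forebrain excitatory neurons, so other cells of the tissue keep the floxed exon, and the study's methods state that some Mef2c-cKO mice carried a recombined allele from the germline. Gene-level Mef2c reads lie mostly outside the deleted exon and do not check the deletion: Mef2c stood at 1207, 1098, 1203 and 1080.1 rescaled CPM in the f/f CS libraries and at 957, 1608 and 1727 in the cKO CS libraries. The labels do not say that the libraries of a group came from separate mice, so p-values measure the spread between these libraries.

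Nucleosome remodellers use ATP to slide, evict or exchange histones. They fall into the CHD, SWI/SNF (BAF), ISWI and related families, and cortical neurons use a neuron-specific set of BAF subunits. Lysine methylation of histone H3 is written by SET domain enzymes and removed by the KDM enzymes, with H3K4 and H3K36 methylation found at active genes and H3K9 and H3K27 methylation at silent ones. Mutations in many of these genes are known causes of neurodevelopmental disorders.

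Values are CPM (reads of a gene per 1000000 reads of its library), rescaled by median-of-ratios factors. A gene is called changed where limma's adjusted p over all tested genes does not exceed 0.05 and the log2 fold change reaches 0.3 in either direction. Signed values beside a gene are log2 fold changes, with the standard error after the ± sign, and adjusted p-values are limma's. Recovered library totals ran from 18935045 to 249046089 reads. The 20 WT libraries and the 13 others list different gene sets: 588 genes with a mean of at least 1 in WT stood at 0 in all 13 others, and 7 the other way round. Setd8, the H4K20 monomethyltransferase, was among the 588, so 61 members were tested outside WT, and levels are not compared between the WT libraries and the rest. WT CS library 2 stood apart from the other 5 of its group in many members, and Mef2c-cKO CS library 8 in glial markers, with rescaled CPM of the astrocyte gene Gfap at 1368 against 68.9 and 122 in the other libraries of its group. Results that rest on either are given with and without it. Excitatory neuron markers were high in every library (summed rescaled CPM of 6 markers from 1348 to 2540), and no marker on the list stood at 0 in any library. In bulk tissue, fewer cells of a type and less RNA per cell cannot be told apart.

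**Figure D1:**
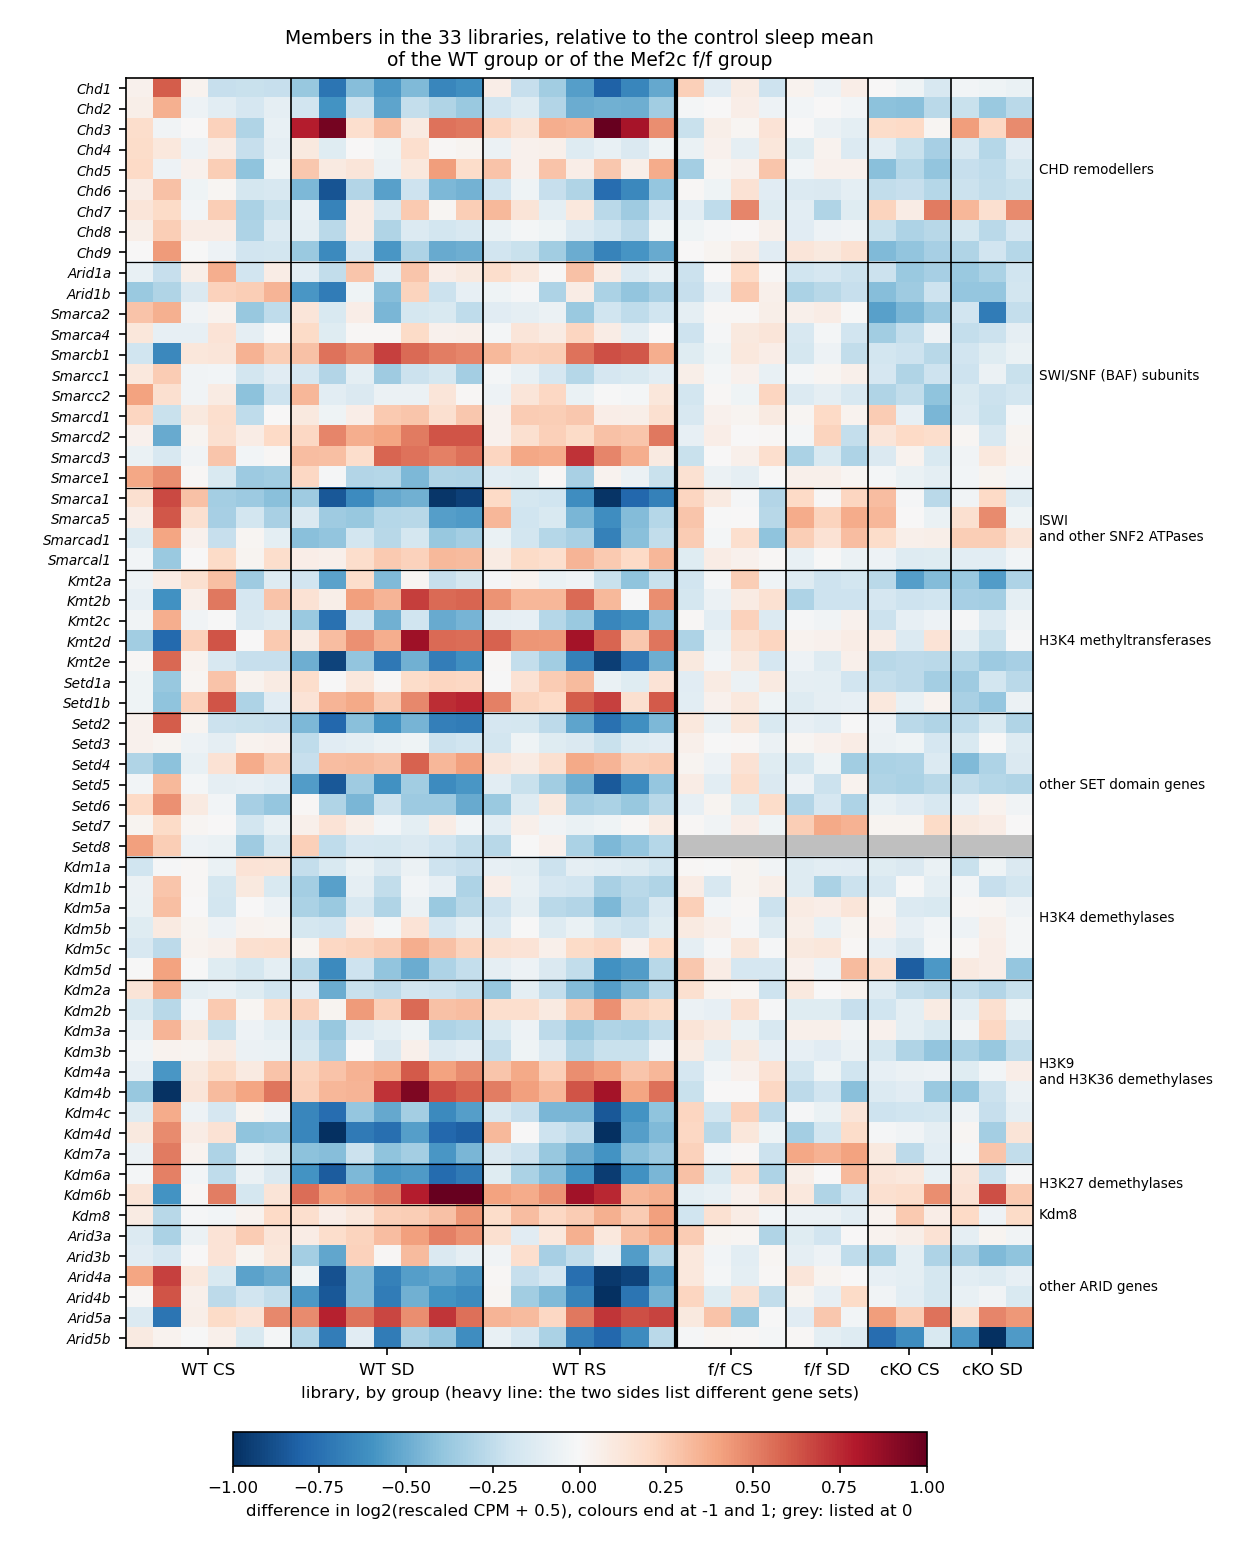
Heat map of the 62 members (rows, grouped by role) in the 33 libraries (columns, grouped), coloured by the difference in log2(rescaled CPM + 0.5) from the WT CS mean (WT libraries) or from the Mef2c f/f CS mean (the others). WT SD and RS columns show red and blue rows side by side within most roles, the second WT CS column stands apart from its group, and the f/f SD columns are pale.

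Sleep deprivation changed 30 of 62 members in WT cortex (48.4%, beside 45.1% of all 12913 tested genes). Of these, 11 were higher after SD, against a background of 24.6% of all genes called higher, and 19 were lower, against 20.5% called lower. The median member differed by -0.14 on the log2 scale, while the median of all tested genes was 0.04. Members of the same family went in opposite directions: the H3K27 demethylase Kdm6b was higher and Kdm6a lower, Kdm4a and Kdm4b were higher and Kdm4c and Kdm4d lower, Arid5a was higher and Arid5b lower, and Chd3 was higher while Chd1, Chd2, Chd6 and Chd9 were lower. CS and SD libraries did not overlap for 13 members (21.0%, beside 15.1% of all genes). Another 4 members (Kdm2a, Kdm5a, Kdm5c and Smarcc1) had an adjusted p under 0.05 and a fold change under the limit.

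Both the size and the split of this count moved with the processing. With the replicate number as a block in the fit, 0 members were called, and all 30 kept their sign. The share of all genes in that fit is not given here, and equal numbers are not known to mark pairs. Without WT CS library 2, 20 members were called (6 higher, 14 lower, 32.3%, beside 34.9% of all genes). With CPM used as deposited, the median of all genes was 0.30 higher in SD than in CS, and 22 members were called higher and 6 lower (45.2% of members, beside 53.5% of all genes), so directions given here are relative to the median-of-ratios scale. No called member changed sign with CPM as deposited or with quantile normalisation. With the trend of fold change on transcript GC content and length removed across all genes, 4 members were called (1 higher, 3 lower, 6.45%, beside 21.6% of all genes). Summed markers of other cell types moved in the same comparison: 4 meningeal fibroblast markers summed to 8.38 to 34.1 rescaled CPM in CS and 37.0 to 62.8 in SD, and 5 red blood cell genes to 28.2 to 118 in CS and 97.9 to 285 in SD. The 6 excitatory neuron markers summed to 1348 to 1832 in CS and 1729 to 2240 in SD, and the 6 astrocyte markers to 548 to 1145 and 646 to 904. Their part in the members' differences was not tested.

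**Figure D2:**
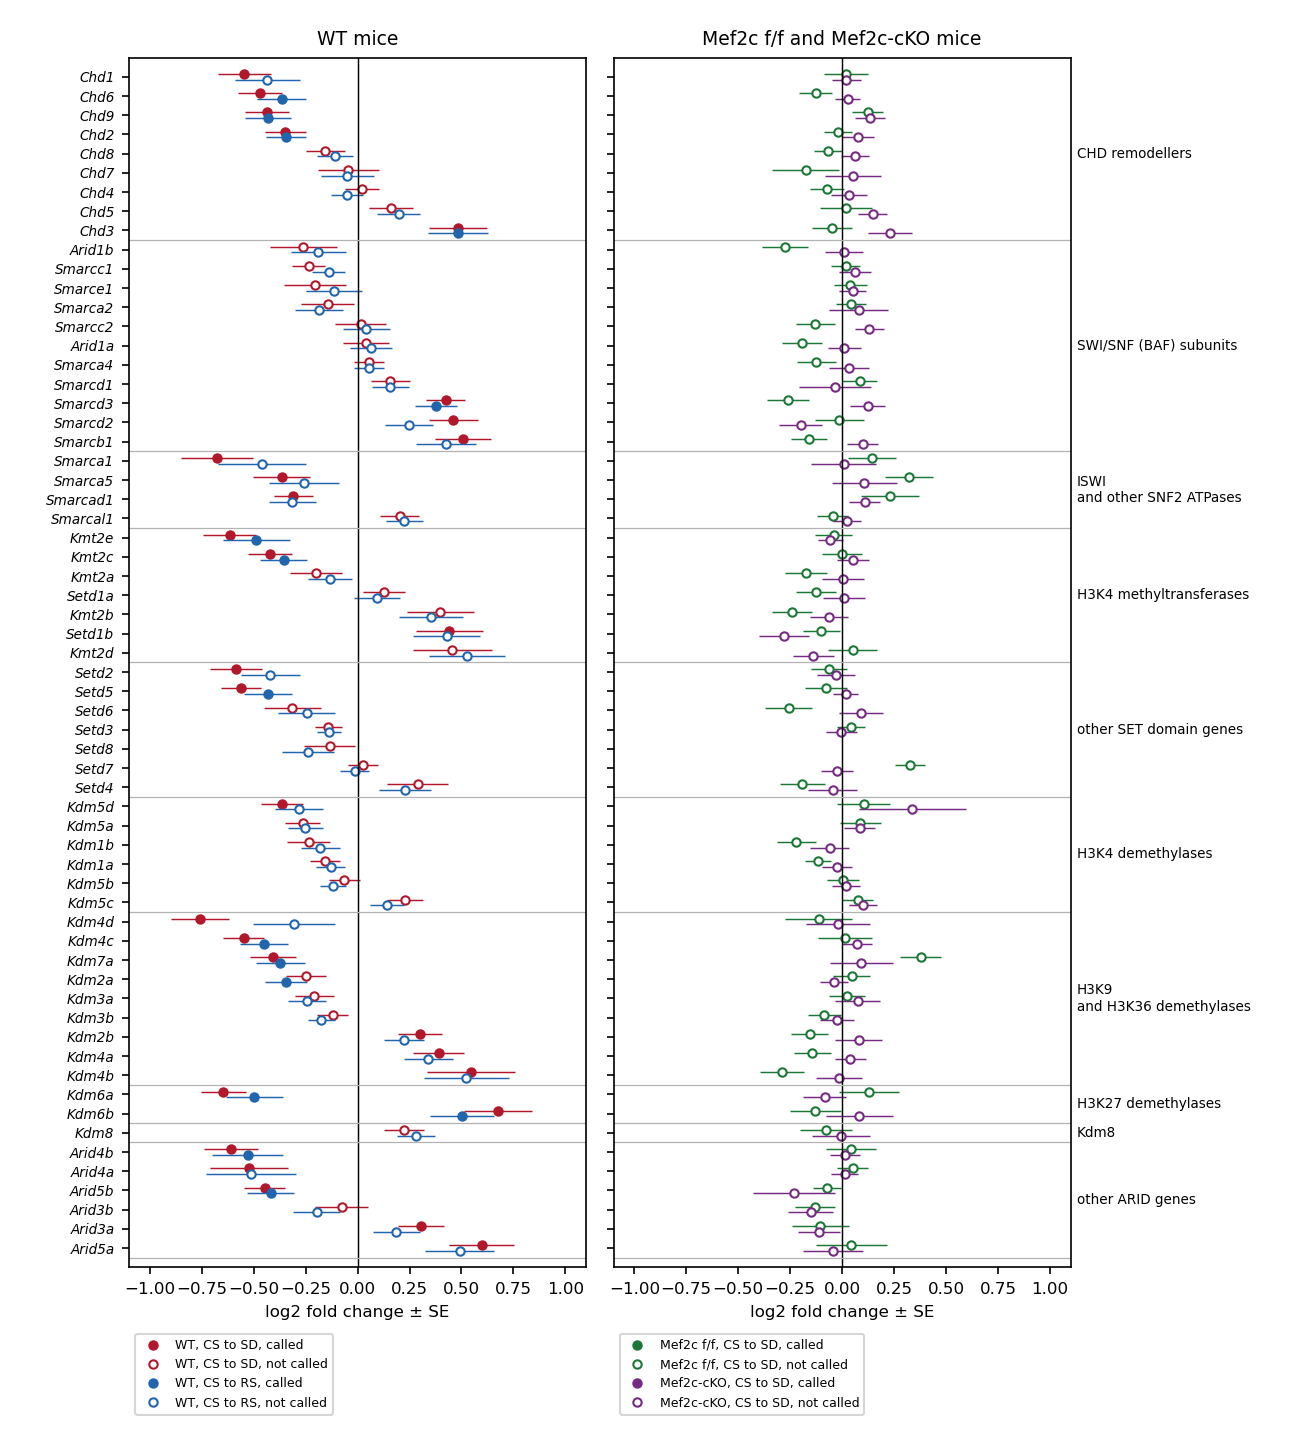
Log2 fold change (points) with its standard error (bars) of each member, ordered by role and by size, in WT mice (left: CS to SD red, CS to RS blue) and in Mef2c f/f (green) and Mef2c-cKO (purple) mice (right: CS to SD). Filled points were called: 30 red and 15 blue points on the left, and none on the right.

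The 2 Kdm6 genes encode demethylases that remove methyl groups from H3K27. Kdm6a (UTX, chrX:18162575-18279936, plus strand, GRCm38) fell and Kdm6b (JMJD3, chr11:69398508-69413675, minus strand, GRCm38, inducible in many cell types) rose. Rescaled CPM of Kdm6a ran from 106 to 178 (median 122) in control sleep, from 70.3 to 92.1 (median 83) after SD and from 65.1 to 115 (median 91.7) after RS. All SD libraries lay under all CS libraries, a log2 fold change of -0.65 ± 0.11 (SE, adjusted p = 0.0011), and of -0.55 (adjusted p = 0.000354) without WT CS library 2. Kdm6b ranged from 3.70 to 8.56 (median 6.17) rescaled CPM in the CS libraries, from 7.94 to 12.5 (median 8.86) in SD and from 7.52 to 10.9 (median 7.93) in RS. The CS and SD ranges of Kdm6b overlapped, and its log2 fold change was 0.68 ± 0.16 (SE, adjusted p = 0.00608), or 0.56 (adjusted p = 0.00811) without WT CS library 2. After RS the pair stood at -0.50 (adjusted p = 0.0365) for Kdm6a and 0.50 (adjusted p = 0.043) for Kdm6b relative to the same CS libraries.

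**Figure D3:**
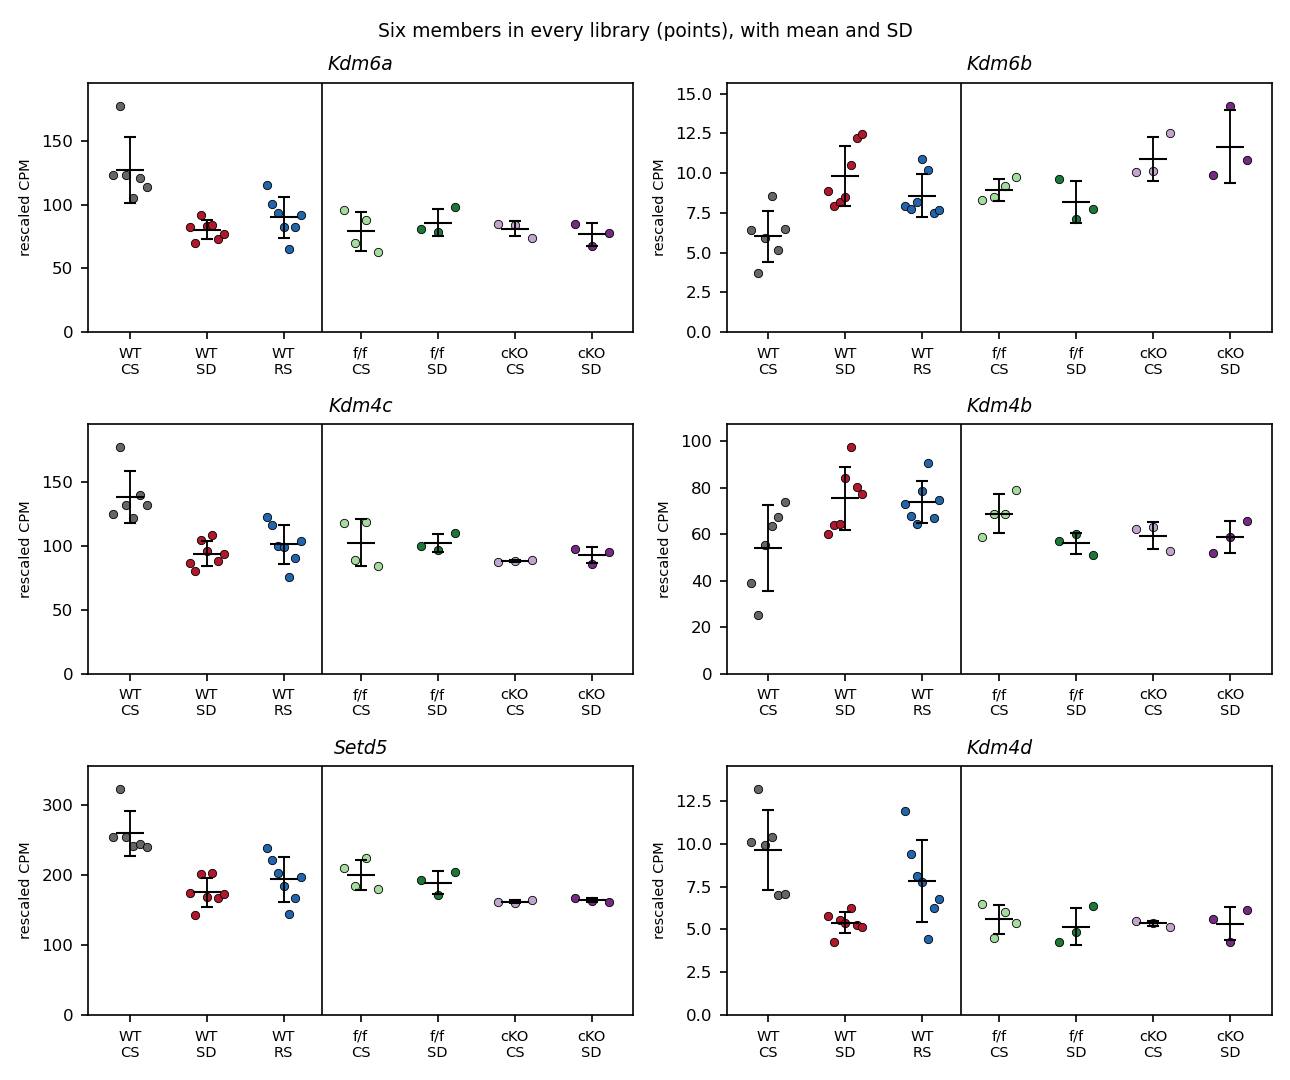
Rescaled CPM (y axis, from 0) of 6 members in every library (points), with the group mean and SD (bars), in the 7 groups (x axis). The vertical line separates the WT libraries from those that list another gene set. In WT, Kdm6a, Kdm4c, Setd5 and Kdm4d are lower after SD with no overlap, while Kdm6b and Kdm4b are higher with overlap.

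Kdm6a and Kdm6b encode related enzymes from transcripts of different base composition, and so do Kdm4c and Kdm4b. To show this, the 150 bases at the middle of the coding sequence of the longest coding transcript of each (GENCODE M21, GRCm38) follow, with G and C in capitals.
Kdm6b: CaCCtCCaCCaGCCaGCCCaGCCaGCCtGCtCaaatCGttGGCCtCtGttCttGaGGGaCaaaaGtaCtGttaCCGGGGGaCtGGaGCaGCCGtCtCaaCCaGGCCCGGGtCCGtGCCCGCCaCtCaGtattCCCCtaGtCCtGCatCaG
Kdm6a: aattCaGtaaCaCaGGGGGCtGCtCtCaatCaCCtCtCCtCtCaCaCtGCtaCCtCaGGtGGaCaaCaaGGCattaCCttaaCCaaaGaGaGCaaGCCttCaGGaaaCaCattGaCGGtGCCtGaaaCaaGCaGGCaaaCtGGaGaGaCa
Kdm4b: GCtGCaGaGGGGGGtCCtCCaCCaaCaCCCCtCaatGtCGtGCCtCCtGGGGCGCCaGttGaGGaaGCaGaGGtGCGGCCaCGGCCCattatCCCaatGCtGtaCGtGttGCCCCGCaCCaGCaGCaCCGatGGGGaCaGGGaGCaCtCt
Kdm4c: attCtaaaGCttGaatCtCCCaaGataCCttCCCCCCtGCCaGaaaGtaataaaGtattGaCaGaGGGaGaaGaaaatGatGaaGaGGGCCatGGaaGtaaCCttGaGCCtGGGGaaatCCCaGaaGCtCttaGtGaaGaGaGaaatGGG
These windows lie within 1 coding exon each: exon 11 of Kdm6b (chr11:69404904-69405053, minus strand), exon 17 of Kdm6a (chrX:18254142-18254291, plus strand), exon 12 of Kdm4b (chr17:56393885-56394034, plus strand) and exon 11 of Kdm4c (chr4:74334704-74334853, plus strand). The windows hold 61.3%, 49.3%, 64.7% and 44.7% G and C in that order. Over the whole coding sequence the shares were 61.7% for Kdm6b, 44.0% for Kdm6a, 59.1% for Kdm4b and 44.7% for Kdm4c.

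Among the 9 demethylases acting mainly on H3K9 and H3K36, 3 were called higher and 3 lower (24.6% and 20.5% of all genes). The Kdm4 family, which removes tri- and dimethyl marks from H3K9 and, apart from Kdm4d, from H3K36, split. Kdm4d (chr9:14462548-14500482, minus strand, GRCm38) had the lowest log2 fold change of all members. Rescaled CPM of Kdm4d ran from 6.99 to 13.2 (median 10.03) in control sleep, from 4.29 to 6.26 (median 5.37) after SD and from 4.43 to 11.9 (median 7.78) after RS. No SD library reached the CS range of Kdm4d, and its log2 fold change was -0.76 ± 0.14 (SE, adjusted p = 0.00155). Kdm4c ranged from 122 to 177 (median 132) rescaled CPM in the CS libraries, from 80.3 to 108 (median 93.3) in SD and from 75.7 to 122 (median 99.4) in RS. Kdm4c differed by -0.55 ± 0.10 (SE, adjusted p = 0.00135), again without overlap. Rescaled CPM of Kdm4b ran from 25.4 to 73.8 (median 59.3) in control sleep, from 59.9 to 97.4 (median 77.3) after SD and from 64.3 to 90.7 (median 72.9) after RS. Kdm4b differed by 0.54 ± 0.21 (SE, adjusted p = 0.0441), a call lost without WT CS library 2, where Kdm4b was lowest, with 0.35 (adjusted p = 0.0797). The Kdm4b call held in 5 of the 13 fits that left out 1 library each. Kdm4a stood at 0.39 ± 0.12 (SE, adjusted p = 0.0184) and at 0.27 (adjusted p = 0.0181) without that library, under the fold limit. The CpG-island-binding enzyme Kdm2b rose by 0.30 ± 0.11, a call lost without WT CS library 2 (0.24, adjusted p = 0.0583). The Kdm2b call held in 7 of the 13 fits that left out 1 library each. Its paralog Kdm2a had -0.25 (adjusted p = 0.0434). Kdm2b shares exon bases with Rnf34 on the opposite strand, and the counting is not stated to use strand. Kdm7a, which acts on H3K9 and H3K27, fell by 0.41 on the log2 scale (adjusted p = 0.0106), but with the GC and length trend removed it turned to 0.18. Kdm3a and Kdm3b, which remove mono- and dimethyl marks from H3K9, had -0.21 (adjusted p = 0.0726) and -0.12 (adjusted p = 0.168).

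Of the 6 H3K4 demethylases, 1 was called (45.1% of all genes), the Y-linked Kdm5d. Kdm5d ranged from 62.2 to 93.1 (median 68.05) rescaled CPM in the CS libraries, from 45.1 to 61.1 (median 56.6) in SD and from 46.03 to 67.97 (median 59.3) in RS. CS and SD libraries did not overlap, and Kdm5d differed by -0.36 ± 0.10 (SE, adjusted p = 0.0114). The call was lost without WT CS library 2 (-0.28, adjusted p = 0.0149) and its sign turned with the GC and length trend removed (0.04). Its X-linked homologue Kdm5c, an intellectual disability gene, had a fold change of the opposite sign, 0.23 (adjusted p = 0.0401). Kdm5a had -0.26 (adjusted p = 0.0207) and Kdm5b -0.06 (adjusted p = 0.479). The flavin-dependent enzymes Kdm1a and Kdm1b, which act on mono- and dimethylated H3K4, had -0.16 (adjusted p = 0.0813) and -0.23 (adjusted p = 0.069). Kdm8, a JmjC protein, had 0.22 (adjusted p = 0.0662).

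The 7 genes of the H3K4 methyltransferase families divided as well. Kmt2c, whose product deposits H3K4 monomethylation at enhancers, and Kmt2e, whose product binds H3K4 trimethylation, fell. Rescaled CPM of Kmt2e ran from 210.1 to 369 (median 235) in control sleep, from 130.2 to 188 (median 161) after SD and from 128 to 249 (median 176) after RS. Kmt2e had the larger difference of the pair, -0.62 ± 0.13 (SE, adjusted p = 0.00294), with no overlap between CS and SD. It shares 972 annotated exon bases with Srpk2 on the opposite strand. Kmt2c ranged from 254 to 364 (median 276) rescaled CPM in the CS libraries, from 168 to 248 (median 206) in SD and from 180.1 to 267 (median 219) in RS. Kmt2c differed by -0.42 ± 0.11 (SE, adjusted p = 0.00692), also with no overlap. Setd1b, the catalytic subunit of a COMPASS complex that methylates H3K4 at promoters, rose by 0.44 ± 0.16 (adjusted p = 0.0341), a call lost without WT CS library 2 (0.36, adjusted p = 0.0737). The Setd1b call held in 6 of the 13 fits that left out 1 library each. Kmt2d and Kmt2b lay close to the limit, with 0.46 (adjusted p = 0.0551) and 0.40 (adjusted p = 0.0509), and Kmt2a and Setd1a had -0.20 (adjusted p = 0.189) and 0.13 (adjusted p = 0.292).

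Among the 7 other SET domain genes, Setd2 and Setd5 were called lower and none higher (20.5% and 24.6% of all genes). Setd2 encodes the enzyme that trimethylates H3K36 in transcribed gene bodies, and Setd5 (chr6:113077365-113153435, plus strand, GRCm38) is a gene of intellectual disability. Rescaled CPM of Setd5 ran from 240.1 to 324 (median 249) in control sleep, from 143 to 203 (median 172) after SD and from 144 to 239 (median 198) after RS. Setd5 differed by -0.56 ± 0.10 (SE, adjusted p = 0.00114), with no overlap, and kept -0.50 (adjusted p = 0.000851) without WT CS library 2. Setd2 ranged from 177 to 317 (median 196) rescaled CPM in the CS libraries, from 121 to 156 (median 137) in SD and from 124 to 186 (median 152) in RS. Setd2 differed by -0.59 ± 0.13 (SE, adjusted p = 0.00363), with no overlap. Setd6, which methylates the NF-kB subunit RelA, had -0.31 (adjusted p = 0.0669), and became one of the 4 calls with the GC and length trend removed, at -0.62 (adjusted p = 0.0189). Setd3 (an actin histidine methyltransferase), Setd4, Setd7 and Setd8 had log2 fold changes between -0.14 and 0.29, none with an adjusted p under 0.05.

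Among the 9 CHD remodellers, 4 were called lower and 1 higher (20.5% and 24.6% of all genes). Chd3 is an ATPase of the NuRD complex, which pairs remodelling with histone deacetylation. Rescaled CPM of Chd3 ran from 272 to 394 (median 331) in control sleep, from 356 to 651 (median 482) after SD and from 367 to 691 (median 431) after RS. The CS and SD ranges overlapped, and Chd3 differed by 0.48 ± 0.14 (SE, adjusted p = 0.0131). The other NuRD ATPases, Chd4 and the neuronal Chd5, had 0.02 (adjusted p = 0.834) and 0.16 (adjusted p = 0.206). Chd1, which binds methylated H3K4, and Chd2, an epilepsy gene, had -0.54 (adjusted p = 0.00494) and -0.35 (adjusted p = 0.0118). Chd1 ranged from 169.7 to 305 (median 188) rescaled CPM in the CS libraries, from 120.3 to 154 (median 134) in SD and from 114 to 209 (median 139.6) in RS. Chd6 and Chd9 stood at -0.47 (adjusted p = 0.00451) and -0.44 (adjusted p = 0.0066). Chd1, Chd2 and Chd6 were lower in all SD libraries than in any CS library, and Chd9 overlapped. Chd2 was no longer called without WT CS library 2 (-0.28, adjusted p = 0.0172). Chd7, the CHARGE syndrome gene, and Chd8, an autism gene, had -0.04 (adjusted p = 0.81) and -0.15 (adjusted p = 0.169).

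Of the 11 SWI/SNF (BAF) subunits, 3 were called higher and none lower (24.6% and 20.5% of all genes). Neither ATPase was called: Smarca2 (BRM) had -0.14 (adjusted p = 0.348) and Smarca4 (BRG1) 0.05 (adjusted p = 0.543). Smarcb1, a core subunit, and Smarcd2 and Smarcd3, which are alternative BAF60 subunits, rose. Rescaled CPM of Smarcb1 ran from 20.1 to 40.5 (median 34.5) in control sleep, from 38.8 to 51.1 (median 45.5) after SD and from 37.5 to 49.7 (median 40.9) after RS. Smarcb1 differed by 0.51 ± 0.14 (SE, adjusted p = 0.00945). Smarcd3 ranged from 36.04 to 48.96 (median 39.3) rescaled CPM in the CS libraries, from 45.5 to 60.4 (median 57.3) in SD and from 42.9 to 66.6 (median 52.1) in RS. Smarcd3, the neural and cardiac BAF60C, differed by 0.42 ± 0.09 (SE, adjusted p = 0.00358), and its sign turned with the GC and length trend removed (-0.06). It shares 2466 annotated exon bases with Chpf2 on the opposite strand. Smarcd2 differed by 0.46 ± 0.12 (SE, adjusted p = 0.00757) and did not overlap between CS and SD, whereas the third BAF60 gene, Smarcd1, had 0.16 (adjusted p = 0.168). Arid1a and Arid1b, the alternative large subunits of canonical BAF, had 0.04 (adjusted p = 0.775) and -0.26 (adjusted p = 0.178). The scaffold subunit Smarcc1 had -0.24 (adjusted p = 0.0268) and missed a lower call by the fold limit alone. Smarcc2, the other scaffold subunit, had 0.01 (adjusted p = 0.929), and Smarce1 had -0.21 (adjusted p = 0.252).

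The ISWI ATPases Smarca1 (SNF2L, X-linked) and Smarca5 (SNF2H) fell, as did the SNF2 family member Smarcad1. Rescaled CPM of Smarca1 ran from 125 to 264 (median 159) in control sleep, from 84.6 to 129.8 (median 108) after SD and from 84.3 to 191 (median 108) after RS. Smarca1 differed by -0.68 ± 0.17 (SE, adjusted p = 0.00774), with overlap at the edge of the ranges. Smarca5 and Smarcad1 stood at -0.37 (adjusted p = 0.0398) and -0.31 (adjusted p = 0.0167), both were lost without WT CS library 2 (-0.24, adjusted p = 0.0702, and -0.23, adjusted p = 0.021), and both turned positive with the GC and length trend removed (0.12 and 0.14). Of the 13 fits that left out 1 library each, the call of Smarca5 held in 5 and that of Smarcad1 in 9. Smarcal1, a replication fork annealing helicase, had 0.20 (adjusted p = 0.0796).

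In the remaining ARID genes, which bind DNA through the domain that names them, 2 were called higher and 3 lower (24.6% and 20.5% of all genes). Arid5a ranged from 2.13 to 5.59 (median 4.18) rescaled CPM in the CS libraries, from 5.53 to 6.93 (median 5.89) in SD and from 4.56 to 6.69 (median 5.80) in RS. Arid5a, which also binds and stabilises inflammatory mRNAs, differed by 0.60 ± 0.15 (SE, adjusted p = 0.00812), and with the GC and length trend removed it was the one higher member, at 0.39 (adjusted p = 0.0213). Rescaled CPM of Arid4b ran from 146 to 271 (median 165) in control sleep, from 97.1 to 129.5 (median 116) after SD and from 84.1 to 177 (median 126) after RS. Arid4b, a subunit of the Sin3 corepressor complex, differed by -0.61 ± 0.13 (SE, adjusted p = 0.00318) and did not overlap. It shares 257 exon bases with Ggps1 on the opposite strand. The related Arid4a had -0.52 (adjusted p = 0.0319) and Arid3a 0.31 (adjusted p = 0.0316), and neither was called without WT CS library 2 (-0.39, adjusted p = 0.0683, and 0.24, adjusted p = 0.0619). Each of these calls held in 6 of the 13 fits that left out 1 library each. Arid5b, which works with the H3K9 demethylase Phf2, had -0.45 (adjusted p = 0.00415), and Arid3b -0.08 (adjusted p = 0.629).

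The members' response to SD in WT followed the base composition of their transcripts. Across the 62 members, the Spearman correlation between log2 fold change and the GC content of the longest transcript was 0.83, and across 12440 annotated genes it was 0.73. Genes share libraries and are not independent replicates, so these are descriptions. The 11 higher members had transcripts of 52.6 to 59.6% GC (median 56.1%) and the 19 lower members of 39.5 to 51.6% (median 44.0%), so the groups did not overlap in GC. The BAF subunits, of which none was called lower, had a median of 55.2%. The ISWI and other SNF2 ATPases, of which 3 of 4 were called lower, had 40.9%. Length was a weaker companion (Spearman correlation of -0.19 over the members), although members have long transcripts, with a median of 6238 bases against 3367 over all genes.

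**Figure D4:**
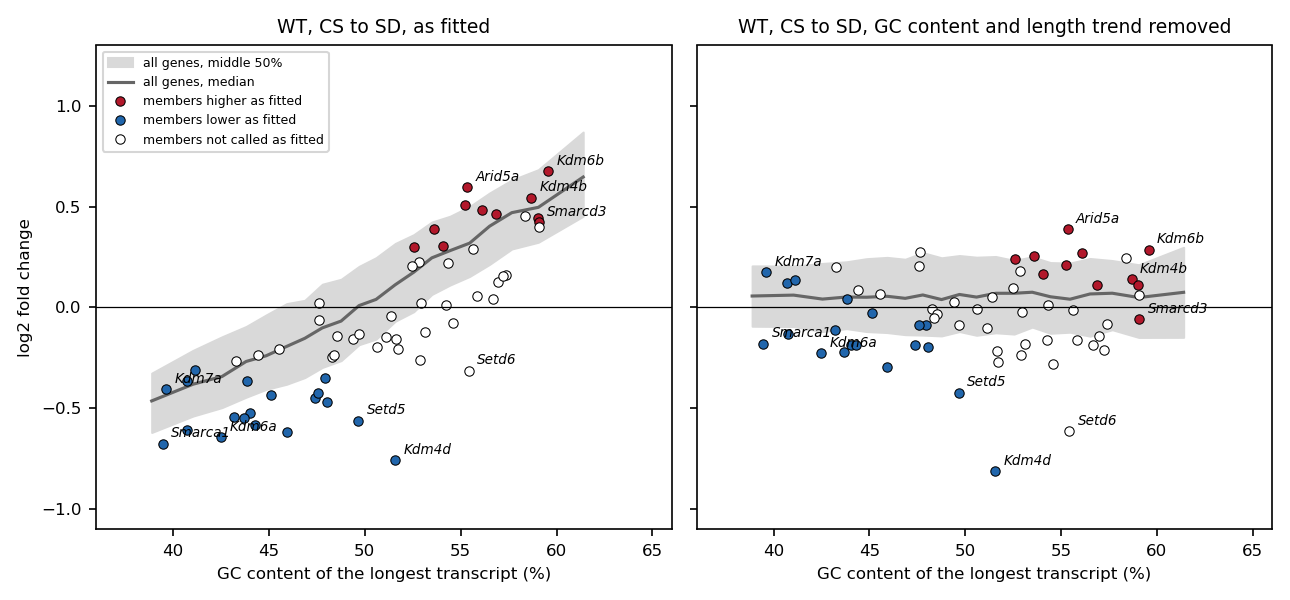
Log2 fold change from CS to SD in WT (y axis) against transcript GC content (x axis), as fitted (left) and with the GC content and length trend over all genes removed (right). Points are members, and the line and band are the median and middle 50% of all genes in 20 bins of GC. On the left the members follow the rising line, and on the right Kdm4d, Setd6 and Setd5 lie farthest below the band and Arid5a above it.

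With the trend removed, Kdm4d stood at -0.81 (adjusted p = 0.00111) and Setd5 at -0.42 (adjusted p = 0.000708), which with Arid5a and Setd6 made the 4 calls. Kdm6a kept an adjusted p of 0.00759 at -0.23 and Kmt2e of 0.00753 at -0.298, both under the fold limit. Signs turned for 5 of the 30 called members (Kdm5d, Kdm7a, Smarca5, Smarcad1 and Smarcd3). The mean difference between the 30 GC-rich and the 31 GC-poor members, on the log2 scale and without Setd8, ran from -2.45 to -1.51 in the WT CS libraries, from -1.41 to -1.11 in WT SD and from -1.61 to -0.96 in WT RS. In the f/f libraries the same difference ran from -1.54 to -1.15 in CS and from -1.57 to -1.38 in SD, and in cKO from -1.33 to -1.24 and from -1.39 to -1.23. WT CS library 2 held the lowest of these values.

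Promoter GC content had a weaker relation with the response. RefSeq promoter windows of 300 bases (250 before and 50 after the start, GRCm38.p6) were found for 47 members, 62 windows in all, with a median GC content of 64.2% against 52.7% over 32851 windows and a median of 26 CpG dinucleotides against 7. The Spearman correlation between promoter GC and the SD response was 0.10 over these 47 members, beside 0.78 for transcript GC over the same 47. The MEF2 consensus motif matched none of the 62 windows (3.69% of all windows), and the CRE motif TGACGTCA none (1.79%). The AP-1 motif TGANTCA matched 6 windows of 5 members (9.68%, beside 7.81% of all): Kdm3a, Kdm4a, Kdm5c, Smarca2 and Smarcb1. The E-box CACGTG matched 1 window each of Kdm4c and Kdm6a (3.23%, beside 7.15%). Both strands were searched, no overlap with other motifs was taken into account, and a match is a description of letters.

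Other genes of the same complexes and pathways, taken from a list of 79 measured partners, were also called in both directions in WT after SD, with 17 higher and 18 lower (44.3%, beside 45.1% of all genes). The genes named here are examples, and no complex was tested as a whole. Among the higher were Mbd3 (0.90), Mta1 (0.37) and Mta2 (0.42), which sit in the NuRD complex with Chd3. Values of the other NuRD genes on the list are not given here. Also higher were the H3K9 methyltransferase Ehmt2 (0.80), the neuronal BAF subunit Dpf1 (0.60), and Wdr5 (0.39), Men1 (0.49) and Cxxc1 (0.41) of the H3K4 methyltransferase complexes. Among the lower were the SNF2 ATPases Atrx (-0.72) and Hells (-0.68), the Y-linked Kdm6a homologue Uty (-0.59), the demethylase-like Jmjd1c (-0.53), the H3K36 methyltransferase Ash1l (-0.37), and Arid2 (-0.36), Pbrm1 (-0.37) and Phf10 (-0.40) of the PBAF complex. After RS, 13 partners differed from the same CS libraries, 6 higher and 7 lower, 16.5% of them beside 17.5% of all genes, and 11 had a response that differed between f/f and WT, 13.9% beside 15.1%.

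After 2 hr of recovery sleep, 15 of 62 members differed from CS in WT (24.2%, beside 17.5% of 12752 tested genes), 3 higher (9.28% of all genes) and 12 lower (8.22%). Higher were Chd3, Kdm6b and Smarcd3, and lower were Arid4b, Arid5b, Chd2, Chd6, Chd9, Kdm2a, Kdm4c, Kdm6a, Kdm7a, Kmt2c, Kmt2e and Setd5. This comparison shares its 6 CS libraries with the SD comparison. Arid4b (-0.53 ± 0.17), Kdm6a (-0.50 ± 0.14) and Kmt2e (-0.49 ± 0.16) had the lowest called values, and Kdm6b (0.50 ± 0.15), Chd3 (0.48 ± 0.14) and Smarcd3 (0.38 ± 0.10) the only higher ones. Setd5 was the 1 member whose CS and RS libraries did not overlap (1.61%, beside 3.72% of all genes), at -0.43 ± 0.12 (SE, adjusted p = 0.0359). Kdm4d, the lowest member in SD, had -0.31 (adjusted p = 0.222) in RS and its RS libraries overlapped both the CS and the SD libraries. Kmt2d had the highest fitted value, 0.53 (adjusted p = 0.0522), and was not called. The RS calls were fragile. Leaving out 1 library at a time gave 0 to 23 called members, beside 0 to 3740 called genes over all. None remained without WT CS library 1, 2 or 3, or without RS library 3, 4, 5, 6 or 12. Without WT CS library 2, 0.768% of all genes were called. No member was called with the GC and length trend removed (3.79% of all genes). With CPM as deposited 11 were called higher and 1 lower (20.9% of all genes called), with the median of all genes at 0.20.

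Between SD and RS themselves, which differ in the hours of deprivation as well as in the sleep that followed, limma called no member (0.0232% of 12921 genes called), 2 had an unadjusted p under 0.05 (5.29% of all genes), and neither edgeR nor DESeq2 called any. Fitted differences ran from -0.21 for Smarcd2 to 0.45 (adjusted p = 0.599) for Kdm4d, with a member median of 0.01.

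In Mef2c f/f mice, limma called none of 61 members between CS and SD (0.0403% of 12410 genes called). At an unadjusted p of 0.05, 9 members differed (17.0% of all genes), edgeR called 0 and DESeq2 2. The shares of all genes called by edgeR and DESeq2 are not given here, so their counts are not read as results about the members. With DESeq2, the study reported far more genes in this comparison than limma called here. The lack of limma calls is therefore not read as a lack of response. Kdm7a (0.38 ± 0.10, adjusted p = 0.139), Setd7 (0.33 ± 0.07, adjusted p = 0.103) and Smarca5 (0.32 ± 0.12, adjusted p = 0.217) had the highest values, and Kdm4b (-0.29 ± 0.11, adjusted p = 0.218), Arid1b (-0.28 ± 0.11, adjusted p = 0.248) and Smarcd3 (-0.26 ± 0.10, adjusted p = 0.237) the lowest. Setd7, an enzyme that monomethylates H3K4 and non-histone proteins, stood at 159, 154, 166 and 153 rescaled CPM in CS and at 188, 206 and 201 in SD, with no overlap, and was the single member called with the GC and length trend removed. CS and SD libraries did not overlap for 7 members (11.5%, beside 17.4% of all genes). Kdm6a had 0.13 (adjusted p = 0.669) and Kdm6b -0.13 (adjusted p = 0.604). Without f/f CS library 1, 3 members were called higher. Over all genes, leaving out 1 library at a time gave from 0 to 590 calls. Several marker sums did not overlap between f/f CS and f/f SD. The 6 oligodendrocyte markers summed to 1517 to 1829 rescaled CPM in CS and 2020 to 2336 in SD, the 6 excitatory neuron markers to 1959 to 2379 and 2391 to 2540, the 6 astrocyte markers to 601 to 656 and 663 to 710, the 4 meningeal fibroblast markers to 19.6 to 23.5 and 24.2 to 50.1, and the 5 red blood cell genes to 123 to 183 and 56.4 to 105. Their part in these values was not tested. Of 79 partners none was called in the f/f or the cKO response to SD.

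In Mef2c-cKO mice none of 61 members was called between CS and SD by limma (0.0234% of 12810 genes), edgeR or DESeq2, and none had an unadjusted p under 0.05 (3.05% of all genes). Leaving out cKO CS library 8 gave no call either. The largest fitted values were 0.34 (adjusted p = 0.998) for Kdm5d, whose 3 CS libraries spread widely, and -0.28 (adjusted p = 0.998) for Setd1b. Chd3 had 0.23 ± 0.11 (SE, adjusted p = 0.998).

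The test of the difference between the cKO and the f/f response to SD called no member by limma (0.00778% of 12860 genes) or edgeR. DESeq2 called 1, a count not read as a result because its share of all genes is not given here. At an unadjusted p under 0.05 there were 4 members (7.81% of all genes). Fitted differences ran from -0.35 ± 0.10 for Setd7 to 0.38 ± 0.14 for Smarcd3.

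The test of the difference between the f/f and the WT response to SD, in contrast, called 13 members (21.0%, beside 15.1% of 13106 genes), 10 with a higher response in f/f (9.35% of all genes) and 3 with a lower one (5.78%). The f/f and WT libraries list different gene sets, but each response is taken within its own side, and the WT part rests on the same CS and SD libraries as above. Every member but Setd8, whose value is void here, was above 0 in all compared libraries. The filter also keeps, through WT, other genes listed at 0 in the f/f libraries, so the shares of all genes include void values. With the genes limited to those above 0 in every compared library, the same 13 members were called. The share of all genes in that fit is not given here. Higher in f/f were Arid4b, Chd9, Kdm4c, Kdm6a, Kdm7a, Kmt2e, Setd5, Smarca1, Smarca5 and Smarcad1, all of them lower after SD in WT. Lower in f/f were Kdm6b, Smarcb1 and Smarcd3, all higher after SD in WT. For Kdm6a the WT response was -0.65, the f/f response 0.13 and their difference 0.77 ± 0.19 (SE, adjusted p = 0.0234). For Kdm7a the 3 values were -0.41, 0.38 and 0.78 ± 0.17 (SE, adjusted p = 0.0181). For Smarcd3 they were 0.42, -0.26 and -0.68 ± 0.15 (SE, adjusted p = 0.018). The count was 0 without f/f SD library 1 or 3 and 16 without WT CS library 2 (16% of all genes). None was called with the GC and length trend removed (1.63% of all genes), and with CPM as deposited, where the median of all genes was -0.30, 2 were higher and 15 lower (26.1% of all genes called).

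Between genotypes, 3 of 61 members were lower in Mef2c-cKO than in Mef2c f/f in CS (4.92%, beside 7.67% of 12681 genes called and 4.5% called lower), and none was higher (3.17% of all genes). Smarca2, the BRM ATPase, lies at chr19:26605050-26778322, plus strand, GRCm38. Smarca2 stood at 281, 302, 302 and 312 rescaled CPM in the f/f control sleep libraries, at 310.1, 315 and 299 in f/f after SD, at 205, 217 and 232 in cKO control sleep and at 262, 184 and 254 in cKO after SD. All cKO values of Smarca2 lay under all f/f values in both sleep states, and the log2 fold change was -0.46 ± 0.08 (SE, adjusted p = 0.0179) in CS and -0.42 ± 0.13 (SE, adjusted p = 0.0542) in SD. Chd9 stood at 314, 318, 331 and 289 rescaled CPM in the f/f control sleep libraries, at 339.7, 335 and 347 in f/f after SD, at 230.5, 238 and 248 in cKO control sleep and at 254, 274 and 257 in cKO after SD. Chd9 likewise did not overlap, and differed by -0.39 ± 0.08 (SE, adjusted p = 0.0288) in CS and by -0.38 ± 0.06 (SE, adjusted p = 0.00638) in SD. The CS call of Chd9 was lost without cKO CS library 8 (-0.42, adjusted p = 0.0514) and held in 2 of the 7 fits that left out 1 library each, beside 4 of 7 for Smarca2 and 3 of 7 for Chd2. Chd2 stood at 181, 183, 191 and 176 rescaled CPM in the f/f control sleep libraries, at 179, 183 and 179 in f/f after SD, at 137, 137 and 151 in cKO control sleep and at 156, 141 and 152 in cKO after SD. Chd2 differed by -0.37 ± 0.08 (SE, adjusted p = 0.0293) in CS and by -0.27 ± 0.06 (SE, adjusted p = 0.0235) in SD, where it was under the fold limit. Without cKO CS library 8, 3 members were called (4.79% of all genes), namely Smarca2 (-0.50, adjusted p = 0.0292), Chd2 (-0.41, adjusted p = 0.0388) and, in place of Chd9, Arid5b. Leaving out f/f CS library 2 or cKO CS library 7 left no call, leaving out f/f CS library 3 left Smarca2 alone, and leaving out cKO CS library 5 left 1 call that was none of the 3. With the GC and length trend removed, Smarca2 and Smarcb1 were called, both lower (9.32% of all genes called). With CPM as deposited 1 member was called (9.68% of all genes), with the median of all genes at 0.13.

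In SD, 4 of 61 members were called between genotypes (6.56%, beside 15.1% of 12774 genes), 2 higher in cKO (9.1% of all genes) and 2 lower (5.99%). Arid5b stood at 76.6, 78.1, 77.7 and 76.2 rescaled CPM in the f/f control sleep libraries, at 77.8, 72.1 and 70.4 in f/f after SD, at 45.3, 50.1 and 69.5 in cKO control sleep and at 51.3, 36.4 and 52.02 in cKO after SD. Arid5b differed by -0.67 ± 0.13 (SE, adjusted p = 0.0131) in SD. In CS its cKO libraries were lower as well, at -0.51 ± 0.13 (SE, adjusted p = 0.051), but the cKO CS library 8 lay closest to the f/f range, and without it Arid5b was called at -0.69 (adjusted p = 0.00905). Chd7 stood at 25.4, 22.9, 38.7 and 24.9 rescaled CPM in the f/f control sleep libraries, at 25.4, 22.2 and 25.1 in f/f after SD, at 32.05, 28.8 and 39.4 in cKO control sleep and at 34.6, 30.7 and 38.1 in cKO after SD. The cKO SD libraries of Chd7 all lay above the f/f SD libraries, at 0.50 ± 0.10 (SE, adjusted p = 0.0127). Chd3 stood at 457, 556, 541 and 587 rescaled CPM in the f/f control sleep libraries, at 534, 513 and 499 in f/f after SD, at 606, 613 and 539.6 in cKO control sleep and at 712, 615 and 739 in cKO after SD. Chd3 differed by 0.41 ± 0.09 (SE, adjusted p = 0.0156) in SD and by 0.13 ± 0.11 (SE, adjusted p = 0.458) in CS, and Chd9 completed the 4. Of the 6 fits that left out 1 library each, the SD calls of Chd7 and Chd9 held in 6, that of Arid5b in 5 and that of Chd3 in 2. Groups did not overlap for 29 members in SD (47.5%, beside 40.3% of all genes) and for 20 in CS (32.8%, beside 26.9%). Without f/f SD library 1, 2 members were called, and without f/f SD library 2 or cKO SD library 5, 6 were. Over all genes, leaving out 1 library at a time gave from 822 to 2447 calls. Another 7 members had an adjusted p under 0.05 and a fold change under the limit, among them Kmt2e (-0.29), Kdm2a (-0.298), Setd7 (-0.27) and Smarcd3 (0.297). The median member was 0.11 lower in cKO in CS and 0.10 lower in SD, while the medians of all genes were 0.03 and 0.01 higher.

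**Figure D5:**
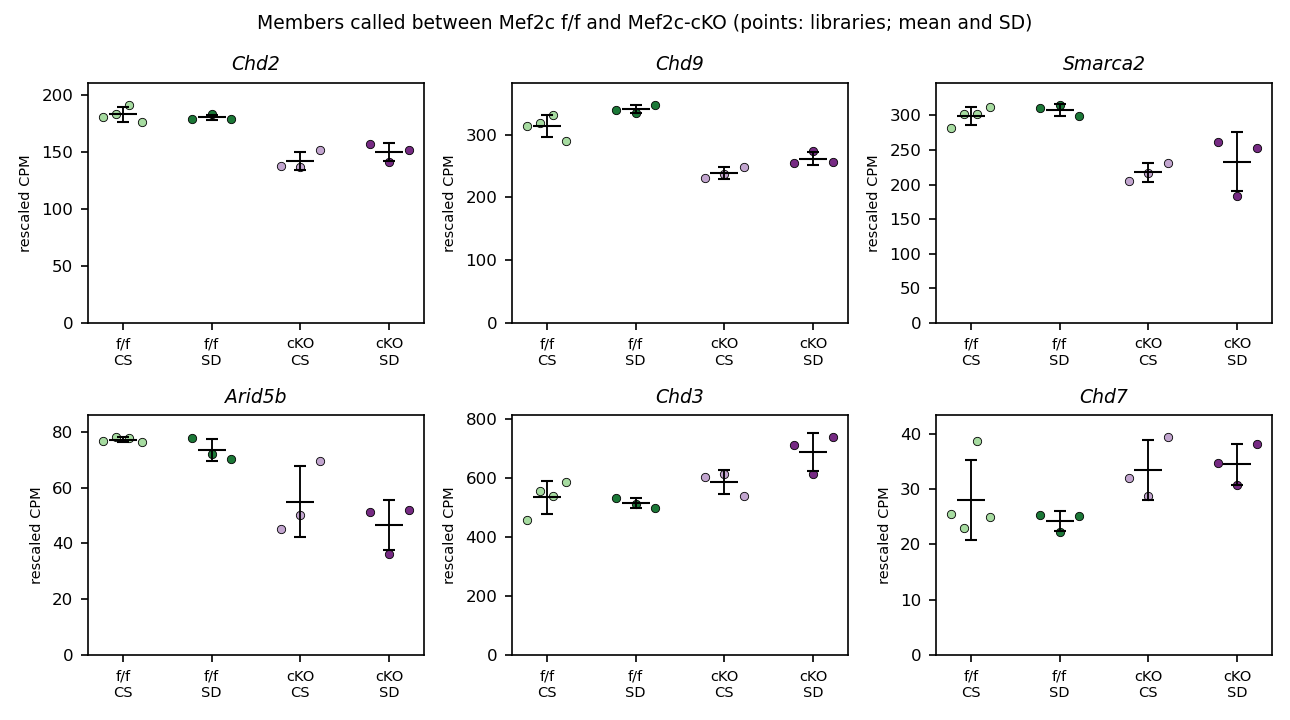
Rescaled CPM (y axis, from 0) of the 6 members called between Mef2c f/f and Mef2c-cKO in CS or SD, in every library (points) with group mean and SD (bars). Chd2, Chd9 and Smarca2 are lower in all 6 cKO libraries than in any f/f library, Arid5b is lower with cKO CS library 8 closest to f/f, and Chd3 and Chd7 are higher in cKO after SD.

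Cell type markers moved with genotype. The 6 astrocyte markers summed to 601 to 656 rescaled CPM in f/f CS and 779 to 2407 in cKO CS, and to 663 to 710 in f/f SD and 842 to 1024 in cKO SD. The 6 microglia markers summed to 137 to 158 in f/f CS against 163, 195 and 436 in cKO CS. In SD they summed to 149 to 155 against 186 to 204. The 6 excitatory neuron markers summed to 1959 to 2379 against 1657 to 2162 in CS, and to 2391 to 2540 against 1908 to 2121 in SD. The 6 inhibitory neuron markers summed to 491 to 631 against 629 to 759 in CS, and to 532 to 608 against 706 to 824 in SD. In CS the 4 meningeal fibroblast markers summed to 19.6 to 23.5 in f/f against 32.7 to 38.3 in cKO, the 5 red blood cell genes to 123 to 183 against 10.7 to 108, and the 4 endothelial markers to 72.3 to 76.8 against 57.8 to 69.8. In SD these sums overlapped. Meningeal markers gave 24.2 to 50.1 in f/f against 35.5 to 48.5 in cKO. Red blood cell genes gave 56.4 to 105 against 76.0 to 142, and endothelial markers 62.8 to 74.0 against 71.8 to 74.6. Their part in the members' differences was not tested.

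Among partners, 5 were lower in cKO in CS (6.33%, beside 7.67% of all genes called): Baz1b (-0.36), Baz2a (-0.33) and Baz2b (-0.43), which pair with ISWI ATPases, the H3K9 methyltransferase Ehmt1 (-0.45) and the acetyltransferase Kat6b (-0.41). In SD, 6 partners were called (7.59%, beside 15.1% of all genes), 3 higher, among them the BAF subunit Dpf3 (0.49) and the H3K27 methyltransferase Ezh2 (0.32), and 3 lower, among them Ash1l (-0.34).

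Per kilobase of the longest transcript, the level of the members in WT CS spanned nearly 2 orders of magnitude. Setd3 was highest at 66.7 ± 2.58 rescaled CPM per kb (SD, n = 6), followed by Smarca2 at 49.9 ± 9.97, Chd3 at 46.5 ± 6.07, Smarcc2 at 41.0 ± 8.05 and Setd5 at 38.5 ± 4.72, of which the last 4 had overlapping ranges of mean ± SD. Arid5a was lowest at 0.728 ± 0.209, next to Kdm6b at 0.907 ± 0.242 and Setd1b at 1.01 ± 0.303, which lay within each other's spread. Kdm6a, at 21.5 per kb, was thus far above its paralog Kdm6b in the same libraries. These levels were not adjusted for transcript GC content, which was 42.5% for Kdm6a and 59.6% for Kdm6b.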

How the data were processed

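RNA-seq of frontal cortex covered 33 libraries in 7 groups. Per the labels and the study's methods, the authors prepared TruSeq Stranded mRNA libraries, aligned reads to mm10 with STAR and counted uniquely mapped reads with HTSeq; the annotation release and strand setting are not given in the sources used here. The deposited values are CPM, and each of the 711645 was a whole multiple of the value of 1 read in its library (tolerance 0.01 reads), so whole reads were recovered for count tests. Listed CPM summed to 1000000 in the f/f and cKO libraries and to 925580 to 985958 in WT.

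Median-of-ratios factors over the 11570 genes at 1 CPM or more in every library rescaled the values. A gene entered a test when all replicates of at least one compared group reached 1 CPM. Tests used limma 3.58.1 (R 4.3.3, trended moderation) on log2(rescaled CPM + 0.5), so fold changes of low genes are understated, with the compared groups alone in each fit and Benjamini-Hochberg adjustment over all tested genes. Calls needed an adjusted p not above 0.05 and a log2 fold change of 0.3 or more in size (interactions: the adjusted p alone), after the authors' thresholds. The filter can keep a gene through its higher group; 62 of 62 members passed in WT and 61 of 62 elsewhere. Recovered reads were also tested with edgeR 4.0.16, which called 5701 genes between WT CS and SD, and DESeq2 1.42.0, which called 6048, beside 5826 by limma. GC content and length came from the longest transcript in GENCODE M21, where all 62 members matched, and their trend was removed per library with splines of 5 and 4 degrees of freedom over annotated genes. Scripts were tested on simulated data. Replicate numbers were not used to pair the libraries in the main fits, as set out below. All members are named, by the symbol rule. Members, partner genes and marker lists were chosen with earlier results of these data known. Of 25 members that share exon bases with another gene, 7 do so with a gene listed in the table, all on the opposite strand (Arid4b, Kdm1b, Kdm2b, Kdm5a, Kmt2e, Smarcc1 and Smarcd3), and their values are uncertain to that extent.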

Additional observations from a re-analysis of the deposited data

Results flagged for a closer look

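Within groups of 4 to 7 libraries, 20 of 247 sets of member values held a library far from the rest by Dixon's test, where chance flags about 1 in 20 (12.35 expected). WT CS library 2 made 13 of these. It held the highest rescaled CPM of its group for Chd1 (305), Chd9 (429), Kmt2c (364), Kmt2e (369), Setd2 (317), Setd5 (324), Kdm5a (149), Kdm5d (93.1), Kdm4c (177), Kdm7a (221), Kdm6a (178) and Arid4b (271), and the lowest for Smarcd2 (5.65). Without it the members called after SD went from 30 to 20 and those after RS from 15 to 0. The RS count also fell to 0 when certain other single libraries were left out, as set out below. The other libraries far from their groups were WT CS library 4 for Smarcd3 (49.0), f/f CS library 3 for Chd7 (38.7), WT RS library 1 for Smarca5 (151), WT RS library 5 for Kdm2b (23.5), WT SD library 1 for Setd4 (9.36, lowest) and Setd8 (40.0), and WT SD library 2 for Kdm2a (88.3, lowest).

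The response to SD differed between Mef2c f/f and WT mice, by the interaction term of limma, for 13 members. On the log2 scale the f/f response minus the WT response was 0.65 for Arid4b, 0.56 for Chd9, 0.56 for Kdm4c, 0.77 for Kdm6a, 0.78 for Kdm7a, 0.58 for Kmt2e, 0.49 for Setd5, 0.82 for Smarca1, 0.69 for Smarca5, 0.54 for Smarcad1, -0.81 for Kdm6b, -0.67 for Smarcb1 and -0.68 for Smarcd3. Adjusted p-values ran from 0.018 to 0.0496.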

How the results depend on the processing

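Counts of called members are given, mostly without the share of all genes, so shifts in them are not read as results about the members. With the GC and length trend removed there were 4 after SD in WT, 0 after RS, 1 in f/f and 0 for the f/f minus WT response, and signs turned in the WT SD response for Kdm5d (0.043), Kdm7a (0.18), Smarca5 (0.12), Smarcad1 (0.14) and Smarcd3 (-0.058), in RS for Kdm7a (0.073) and Smarcd3 (-0.031), and in f/f minus WT for Smarcad1 (-0.012). DESeq2 gave 23 in RS, 2 in f/f, 11 and 9 between genotypes in CS and SD, 1 for cKO minus f/f and 20 for f/f minus WT. With no filter there were 0 in RS and 4 for f/f minus WT, with quantile normalisation 7 in RS, 1 between genotypes in CS and 6 for f/f minus WT, and with CPM as deposited 1 between genotypes in CS. The cause was not tested. Leaving out 1 library at a time gave 20 to 33 in SD, 0 to 23 in RS, 0 to 3 in f/f, 0 to 5 between genotypes in CS, 2 to 6 in SD, 0 to 22 for f/f minus WT, and 0 in every case for SD to RS, cKO and cKO minus f/f. Calls over all genes moved in the same fits, from 4509 to 6411 in SD, 0 to 3740 in RS and 0 to 590 in f/f. They ran from 171 to 875 between genotypes in CS, 822 to 2447 in SD and 23 to 3300 for f/f minus WT. RS fell to 0 without WT CS 1, 2 or 3, or RS 3, 4, 5, 6 or 12, and rose to 23 without CS 6 or RS 1.

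With the replicate number as a block there were 0 in SD, 26 in RS and 0 for f/f minus WT. Same-numbered libraries deviated together with r from -0.30 to 0.65 between WT CS and SD and 0.049 to 0.66 between CS and RS. Between SD and RS r ran from -0.73 to 0.35, and in f/f from 0.054 to 0.29. Same-numbered libraries were not every time each other's best match, so the main fits were not paired. With so few pairs, these values cannot show whether equal numbers mark paired libraries, and a pairing is not excluded. In cKO the 2 shared numbers gave r of 0.066 and 0.16 and each library matched its own number best, but 2 pairs are too few to pair them. No paired analysis was possible for the genotype comparisons because the groups share no numbers. The restriction to annotated genes and that to genes above 0 in every compared library were chosen after seeing the data. Members at low CPM, such as Arid5a and Kdm6b, rest on the fewest reads, and f/f CS library 4 is the shallowest.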
